A study of Mus musculus with 6 samples.

Results

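Elastic fibres are the recoiling component of the extracellular matrix. They have a core of cross-linked elastin, which is laid down on a scaffold of fibrillin microfibrils with the help of fibulins, microfibril-associated glycoproteins and lysyl oxidases. In the heart they lie in coronary vessel walls, valves, the epicardium and the interstitium, elastin is made mostly around birth and during growth, and the deposited protein turns over slowly. The 10 genes described here encode elastin (Eln), the fibrillins (Fbn1, Fbn2), microfibril-associated proteins (Mfap2, Mfap4, Mfap5), fibulins (Fbln1, Fbln5, Efemp2) and emilin-1 (Emilin1). They were picked by gene symbol from the 18181 genes of the deposited table, and all 10 were found.

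The study sequenced poly(A) RNA of the heart ventricle from the inbred mouse strain C57BL6. Mice were 6 to 8 weeks old (young) or 24 to 26 months old (aged), with 3 libraries per age. No treatment or altered gene is recorded for either age, and whether a sample came from 1 animal or several is not stated. P-values therefore measure only the spread between these samples. Expression was given in FPKM (fragments scaled to gene length and to the mapped total), so levels can be set side by side between genes. Read totals are not part of the table and depth is unknown. The 10 genes were chosen with results of the comparison between ages already known, so their differences are given as a description, without a test, and are no independent evidence of a direction.

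Libraries differed in ways that the ages do not account for. FPKM summed to between 529258 and 566499 per library. Markers of stratified epithelium, a tissue foreign to ventricle, summed to 318 and 516 FPKM in aged replicates 1 and 2 and to between 2.08 and 2.93 in the other 4 libraries, so results are also given with aged replicate 3 as the only aged library. Ventricular identity was clear: the ventricular light chain Myl2 was at 11179.6 to 18356.8 FPKM in every library, and Sln, an atrial gene named after its values were seen, did not exceed 0.46 FPKM.

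In all, 8 of the 10 genes had every aged library below every young one, 0 had the reverse and 2, Fbln1 and Fbln5, overlapped. Among all 11860 genes that averaged 1 FPKM or more, 27.9% were separated with the aged libraries lower. Fbn2, among the 8 genes, is not in that set. Aged replicate 3, which lacked the epithelial transcripts, is among the aged libraries of that count of 8. Its place below all young libraries for these genes is therefore no separate check. Of the members 9 passed the minimum of 1 FPKM and Fbn2 did not. Their median difference, aged minus young on the log2(FPKM + 1) scale (the log2 difference), was -0.76 as a description, and that of all 11860 genes was -0.06. In bulk tissue, fewer cells of a type and less RNA per cell cannot be told apart.

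**Figure D1:**
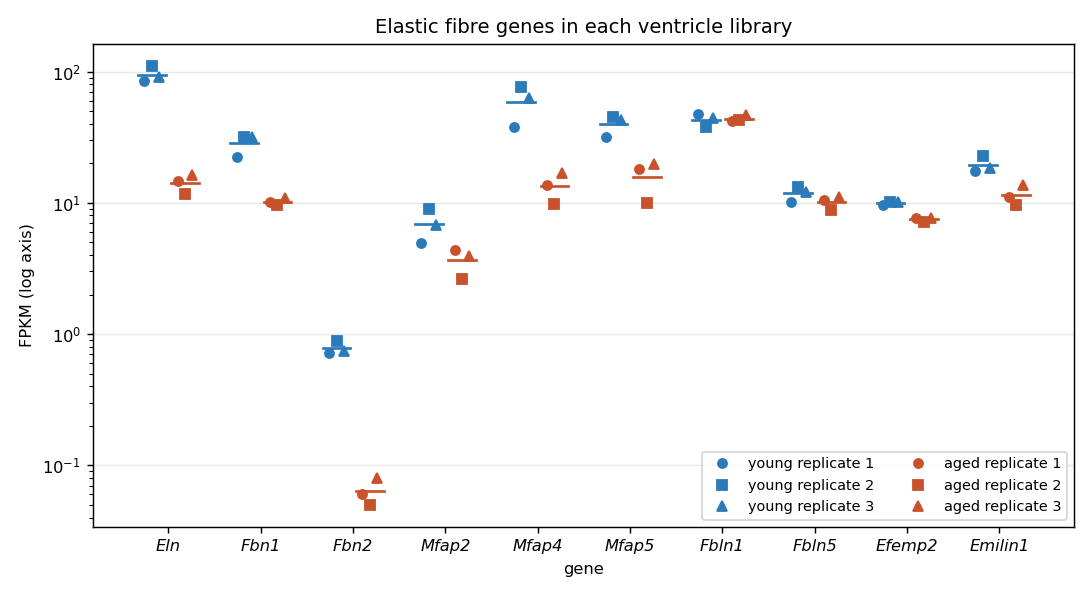
FPKM of each elastic fibre gene (log axis) in the 3 young libraries (blue) and the 3 aged ones (orange), with a bar at each mean and a symbol for each replicate. The ages stand apart for 8 genes, by most for Fbn2 (12.3-fold) and Eln (6.69-fold), while the symbols of Fbln1 and Fbln5 overlap.

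Elastin was the most abundant of the 10 transcripts in young ventricle and stood among several similar ones in aged ventricle. The gene lies on the minus strand of chromosome 5 (134702595 to 134747368, GRCm38) and its coding transcript has 37 exons. Eln read 84.14, 110.27 and 90.03 FPKM in young replicates 1 to 3 and 14.57, 11.64 and 16.28 in aged replicates 1 to 3. Every aged library was thus far below the lowest young one. The means were 94.8 ± 13.7 and 14.2 ± 2.35 FPKM (SD, n = 3), a 6.69-fold difference, with a log2 difference of -2.66 (SE 0.13). With aged replicate 3 as the only aged library the log2 difference was -2.46.

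The fibrillins, large glycoproteins that polymerise into the microfibril scaffold, were both lower in aged ventricle. Fbn1, the main fibrillin of postnatal tissue, was at 22.21, 31.93 and 31.85 FPKM in young and at 10.13, 9.55 and 10.94 in aged libraries. Its means of 28.7 ± 5.59 and 10.2 ± 0.698 FPKM (SD, n = 3) differed 2.81-fold, and the aged values lay closer together than the young ones. Fbn2, which is used mostly in embryonic and growing tissue, was low throughout, at 0.72, 0.88 and 0.74 FPKM in young and 0.06, 0.05 and 0.08 in aged libraries. The Fbn2 means differed 12.3-fold, but the aged values are only a few steps above the 0.01 FPKM to which the table is rounded. Fbn2 amounted to a ratio of 0.0277 ± 0.00459 to Fbn1 in young and 0.00616 ± 0.00106 in aged ventricle (SD, n = 3), so the fibrillin transcripts were nearly all Fbn1 at both ages. Fbn1 spans 125300594 to 125506485 on the minus strand of chromosome 2, in 65 exons with a coding length of 8619 bases.

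Promoter sequence was at hand for 6 of the 10 genes in RefSeq's GRCm38.p6 table (Fbn1, Mfap2, Emilin1, Fbln5, Fbln1 and Efemp2). It is shown for Fbn1, whose ages stood apart, and for Fbln1, a fibulin whose ages overlapped. Each window has 250 bases before and 50 after a RefSeq start, 5′ to 3′, with GGGCGG, the core recognised by Sp1 family factors, in capitals on either strand.
Fbn1 (chr2:125506389-125506688, minus strand): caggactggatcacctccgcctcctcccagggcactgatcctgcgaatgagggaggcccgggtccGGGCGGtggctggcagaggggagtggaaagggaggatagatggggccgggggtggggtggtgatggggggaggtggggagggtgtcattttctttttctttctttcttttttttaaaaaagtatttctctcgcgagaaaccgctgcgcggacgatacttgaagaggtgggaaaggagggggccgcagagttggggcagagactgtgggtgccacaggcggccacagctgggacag
Fbln1 (chr15:85205699-85205998, plus strand): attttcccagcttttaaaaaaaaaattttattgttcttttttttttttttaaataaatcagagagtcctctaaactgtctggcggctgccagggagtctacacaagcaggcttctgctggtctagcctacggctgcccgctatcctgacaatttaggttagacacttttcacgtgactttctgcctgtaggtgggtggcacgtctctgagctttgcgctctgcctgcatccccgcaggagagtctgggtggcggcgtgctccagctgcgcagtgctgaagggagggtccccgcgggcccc
The Fbn1 window held 1 copy of GGGCGG and the Fbln1 window held 0, although a second Fbln1 start a short way downstream (85205758 to 85206057) held 2. Of the members not printed, Fbln5, with overlapping ages, held 2 and 0 copies in its windows. Among those with separate ages, Mfap2 held 2 and 0, Emilin1 held 0 and Efemp2 held 2, 5 and 7. GGGCGG was found in 35.7% of all 32851 promoter windows of this length. The same search covered TATAAA (13.6% of windows), TGANTCA of AP-1 (7.81%), CAGACA of Smad factors (21% of windows), GGAATG of TEAD factors (14.7%) and the CArG box of SRF (1.63%), on both strands. Apart from the GGGCGG copy, the only match in the printed windows was 1 CAGACA in the Fbln1 window, and no match overlapped another. The Fbn1 window had 60.3% G and C and the Fbln1 window 51.7%, where the median of all windows was 52.7%. These matches describe letters, not sites in use.

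The microfibril-associated genes all had aged libraries below young ones. Mfap4, a fibrinogen-related glycoprotein that binds tropoelastin and fibrillin, was at 37.73, 76.36 and 62.47 FPKM in young and 13.57, 9.75 and 16.90 in aged libraries. Its ages were well apart although its young values spread widely, with a coefficient of variation of 33.2%, and the means of 58.9 ± 19.6 and 13.4 ± 3.58 FPKM (SD, n = 3) differed 4.39-fold. Mfap5 (MAGP-2), which binds fibrillins and is typical of adventitial fibroblasts, was at 31.48, 45.18 and 42.46 FPKM in young and 17.99, 9.92 and 19.58 in aged libraries, a 2.51-fold difference of the means. Mfap2 (MAGP-1), its paralogue on the microfibril surface, was lower in level, at 4.91, 8.97 and 6.81 FPKM in young and 4.40, 2.61 and 3.90 in aged libraries. The gap between the ages was narrow for Mfap2: young replicate 1 was only just above aged replicate 1, and the means of 6.90 ± 2.03 and 3.64 ± 0.924 FPKM (SD, n = 3) differed 1.90-fold. Mfap5 exceeded Mfap2 by 5.89 ± 0.748-fold in young and by 4.303 ± 0.638-fold in aged ventricle (SD, n = 3). Mfap4 lies on chromosome 11 (61485431 to 61488708), Mfap5 on chromosome 6 (122513584 to 122529290) and Mfap2 on chromosome 4 (141010424 to 141015976), all on the plus strand.

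The fibulins differed least between the ages. Fbln1 encodes a fibulin of elastic fibre cores, basement membranes and valves. Its transcript was at 47.15, 37.52 and 44.20 FPKM in young and 41.64, 42.96 and 46.63 in aged libraries, so the ages overlapped, with means of 43.0 ± 4.93 and 43.7 ± 2.59 FPKM (SD, n = 3). The log2 difference of Fbln1 was 0.03 (SE 0.089) and became -0.01 after rescaling to TPM. Fbln1 has splice forms, which are added together in a gene level. Fbln5, which binds tropoelastin and is needed for elastic fibre formation in mice, was at 10.22, 13.25 and 12.17 FPKM in young and 10.59, 8.88 and 11.14 in aged libraries. Again the ages overlapped, and the log2 difference of -0.20 had an SE of 0.111. Efemp2 (fibulin-4), which brings lysyl oxidase to tropoelastin, was at 9.57, 10.18 and 10.21 FPKM in young and 7.66, 7.15 and 7.63 in aged libraries. Its difference was small, 1.34-fold, but its libraries were also the most alike of the 10 genes within each age, with coefficients of variation of 3.62% and 3.83%. Fbln1 lies on chromosome 15 (85205949 to 85286294), Fbln5 on chromosome 12 (101746565 to 101819119, minus strand) and Efemp2 on chromosome 19 (5473946 to 5482520).

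Emilin1 encodes a glycoprotein at the interface of elastin and microfibrils that in mice also restrains TGF-beta maturation. Emilin1, on chromosome 5 (30913387 to 30921279, plus strand), was at 17.31, 22.70 and 18.32 FPKM in young and 10.97, 9.59 and 13.66 in aged libraries. The ages did not overlap, and the means of 19.4 ± 2.87 and 11.4 ± 2.07 FPKM (SD, n = 3) differed 1.70-fold. Eln kept a near-constant proportion to Emilin1 within an age: the ratio was 4.86, 4.86 and 4.91 in young replicates 1 to 3 and 1.33, 1.21 and 1.19 in aged replicates 1 to 3.

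The make-up of the group therefore differed between the ages. The 10 transcripts summed to 265.44, 357.24 and 319.26 FPKM in young and 131.58, 112.10 and 146.74 in aged libraries, 2.41-fold lower by the means. Without Eln the sums differed 1.89-fold. Eln held 30.3 ± 1.83% of the sum in young and 10.9 ± 0.404% in aged ventricle (SD, n = 3). Fbln1 went the other way in share, with 14.0 ± 3.63% in young and 33.9 ± 3.82% in aged, while its level was alike. The share of Fbn1 was close at both ages, 9.09 ± 0.816% and 7.89 ± 0.557%, and so was that of Mfap5, 12.6 ± 0.721% and 11.96 ± 2.69%. Eln exceeded Fbn1 by 3.36 ± 0.488-fold in young and 1.38 ± 0.143-fold in aged ventricle, and Eln over Fbln1 was 2.25 ± 0.607 in young against 0.323 ± 0.0454 in aged (SD, n = 3).

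**Figure D2:**
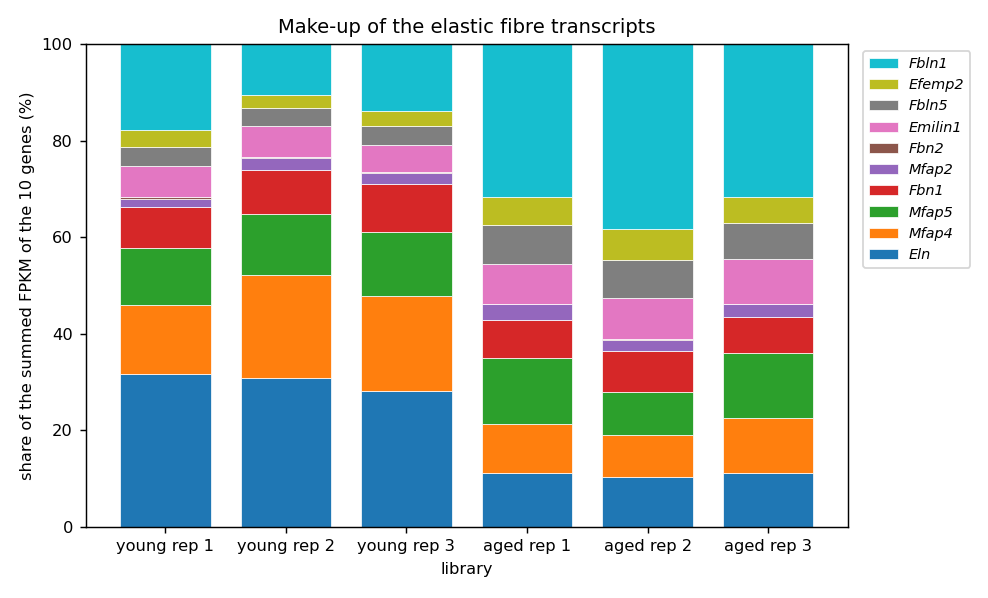
Share of each gene in the summed FPKM of the 10 elastic fibre genes, as stacked bars that add to 100% in each of the 6 libraries. Eln (dark blue, bottom) takes 28.2% to 31.7% of the young bars and 10.4% to 11.1% of the aged ones, and Fbln1 (light blue, top) is the largest part of each aged bar, at 31.6% to 38.3%.

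The order of the levels changed accordingly. In young ventricle it was Eln, Mfap4, Fbln1, Mfap5, Fbn1, Emilin1, Fbln5, Efemp2, Mfap2 and Fbn2. Every young library had Eln above the highest value of Mfap4, whereas the libraries of each neighbouring pair from Mfap4 to Emilin1 overlapped. In aged ventricle Fbln1 came first and apart from the rest. Behind it Mfap5, Eln, Mfap4, Emilin1, Fbn1 and Fbln5, with means of 15.8 to 10.2 FPKM, overlapped from neighbour to neighbour, while Efemp2, Mfap2 and Fbn2 followed apart from each other.

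Within an age the genes tended to be high or low together in a library. Young replicate 1 was the lowest young library for 9 of the 10 genes, and young replicate 2 was the highest for 8. Aged replicate 2 was the lowest aged library for 9 genes and aged replicate 3 the highest for 8. Fbln1 was the exception in both cases, being highest of the young libraries in young replicate 1 and not lowest in aged replicate 2.

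Genes whose profile over the 6 libraries was nearest to that of Eln were C1qtnf6, Col3a1, Sparc, Mest and Mfap4. Nearness was the root mean square difference of log2(FPKM + 1), each gene being centred on its young mean, among 7922 genes that averaged 5 FPKM or more. C1qtnf6, a secreted C1q family gene, was nearest (0.26), with 24.63, 29.43 and 26.68 FPKM in young and 4.84, 3.77 and 5.50 in aged libraries. Col3a1, a fibrillar collagen of distensible tissues, came next (0.38), followed by the collagen-binding gene Sparc (0.43), the imprinted gene Mest (0.46) and Mfap4 (0.50). Like Eln, the first 3 of these had aged replicate 2 as their lowest library. Eln over Col3a1 was 0.434 ± 0.0549 in young and 0.29 ± 0.0132 in aged ventricle (SD, n = 3). Because the measure was made from the same 6 libraries, it describes likeness and was not tested.

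**Figure D3:**
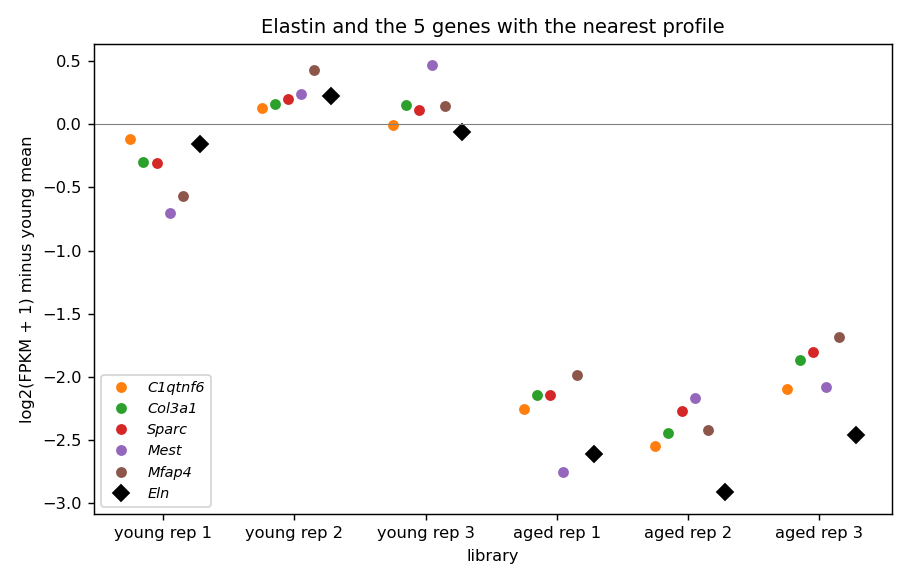
Log2(FPKM + 1) minus the mean of the young libraries in each of the 6 libraries, for Eln (black diamonds) and the 5 genes with the nearest profile (coloured circles). All 6 genes lie between -2.91 and -1.68 in the aged libraries, and Eln is lowest in aged replicates 2 and 3.

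The wider elastic fibre pathway was examined in 5 lists holding 66 genes other than the members, of which 65 were in the table and 50 passed the minimum of 1 FPKM. By limma on log2(FPKM + 1), with Benjamini-Hochberg adjustment over all tested genes, 19 of the 50 were lower in aged ventricle (38% of them, beside 17.1% of all tested genes) and 2 were higher (4%, beside 9.32%). The median log2 difference was -0.21 over these 50 genes and -0.06 over all tested genes. With aged replicate 3 as the only aged library, 9 were lower and 2 higher. The count of higher genes was 4 without young replicate 1 and 3 without young replicate 2 or 3. These lists too were chosen with earlier results of these data known, so their counts are no independent evidence of a direction. Counts of the single lists below stand beside the same 17.1% and 9.32% of all tested genes.

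Relatives of the members and microfibril partners fell in 7 cases and rose in 1, of 17 tested. Adamtsl2, which binds fibrillin microfibrils, fell from 17.1 ± 4.95 to 4.09 ± 1.31 FPKM (SD, n = 3; log2 -1.82, SE 0.229, limma adjusted p = 0.000918). Emilin2, a paralogue of Emilin1, fell from 26.9 ± 0.644 to 11.4 ± 1.71 (log2 -1.18, SE 0.0963, adjusted p = 9.37e-05). The microfibril-binding proteases and relatives Adamts10 and Adamtsl4 fell 1.62-fold and 1.37-fold, Hmcn2 (hemicentin-2) 1.67-fold, the endothelial emilin relative Mmrn2 1.39-fold and Mfap3 1.297-fold. Mfap3 lost its call without young replicate 2 (adjusted p = 0.0604), young replicate 3 (0.0792) or aged replicate 1 (0.0574). Below the minimum for testing, Adamts17 was at 0.75, 0.90 and 0.89 FPKM in young and 0.09, 0.19 and 0.11 in aged libraries. With no minimum, limma called Adamts17 lower (adjusted p = 0.00157). It was named after its values were seen. The latent TGF-beta binding proteins, which tether that growth factor to microfibrils, did not pass: Ltbp4, the most abundant, was at 114.74, 145.93 and 139.42 FPKM in young and 101.76, 104.25 and 127.17 in aged libraries (adjusted p = 0.112), with overlapping ages.

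Efemp1 (fibulin-3) was the exception among the relatives. It was at 2.73, 1.19 and 4.25 FPKM in young and 14.06, 15.68 and 10.41 in aged libraries, with no overlap. The rise was 4.91-fold, with a log2 difference of 2.02 (SE 0.279, limma adjusted p = 0.00141). It was called in each fit that left out a single library, while with aged replicate 3 as the only aged library the log2 difference was 1.70 and the adjusted p 0.0542. The ratio of Efemp1 to its relative Efemp2 was 0.273 ± 0.15 in young and 1.80 ± 0.416 in aged ventricle (SD, n = 3).

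Enzymes and helpers of elastin cross-linking fell in 4 of 6 tested genes, and 0 rose. Loxl2, a lysyl oxidase relative that acts on collagen IV and elastin, was at 19.26, 24.67 and 26.37 FPKM in young and 6.30, 5.26 and 8.14 in aged libraries, 3.57-fold lower without overlap (log2 -1.70, SE 0.152, limma adjusted p = 0.000149). Fkbp10, a chaperone of tropoelastin and procollagen, fell 1.70-fold. Loxl1, the relative tied to elastic fibre upkeep in adult mice, fell from 34.0 ± 2.98 to 23.4 ± 4.55 FPKM (SD, n = 3), and Lox from 2.03 ± 0.125 to 1.26 ± 0.131. These last calls were narrow. Loxl1 lost its call without young replicate 2 (adjusted p = 0.0622) or 3 (0.0674). Lox lost it without any 1 young library (0.0516, 0.0548 and 0.0922 for replicates 1 to 3) and without aged replicate 1 (0.0758) or 2 (0.0641). Without young replicate 2 or 3 the list had 2 lower genes. The ratio of Loxl1 to Eln was 0.362 ± 0.0332 in young and 1.65 ± 0.102 in aged ventricle (SD, n = 3), since Eln differed more than Loxl1.

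Among elastin-degrading proteases 2 of 6 tested genes fell (33.3%, beside 17.1% of all tested genes) and 0 rose. The gelatinase gene Mmp2 fell from 59.1 ± 4.68 to 34.1 ± 5.36 FPKM (SD, n = 3; log2 -0.78, SE 0.109, limma adjusted p = 0.00149) and its membrane-bound activator Mmp14 from 18.01 ± 2.50 to 12.6 ± 0.353. The cathepsins Ctsb and Ctsl, lysosomal proteases, were at 407 ± 18.8 and 94.4 ± 8.47 FPKM in young and 395 ± 8.53 and 94.4 ± 5.08 in aged ventricle. Below the minimum for testing, Mmp9 was at 0.27, 0.38 and 0.27 FPKM in young and 1.47, 1.35 and 1.84 in aged libraries, and the elastase gene Cela1 at 0.10, 0.10 and 0.27 against 1.02, 1.64 and 1.65. Neither overlapped between the ages, aged replicate 3 being the highest for both. With no minimum, limma called both higher (adjusted p = 0.00197 for Mmp9 and 0.00358 for Cela1). Both were named after their values were seen.

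Of 6 tested protease inhibitors Serpina3n, a serine protease inhibitor of inflammation, rose 4.40-fold from 3.99 ± 0.73 to 17.5 ± 3.91 FPKM (SD, n = 3; log2 1.88, SE 0.155, limma adjusted p = 9.66e-05). Timp2, an inhibitor of metalloproteinases, fell 1.23-fold (adjusted p = 0.0408). Timp2 lost its call with median-of-ratios scaling (0.091) or quantile normalization (0.0578), and without young replicate 2 (0.119) or 3 (0.143) or aged replicate 1 (0.128) or 2 (0.0917). Cst3, the cathepsin inhibitor cystatin C, was the most abundant of the list, at 814 ± 30.0 and 797 ± 80.5 FPKM.

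Receptors and TGF-beta genes fell in 5 of 15 tested cases (33.3%, beside 17.1% of all tested genes), and 0 rose. Itga9, an integrin subunit that binds several matrix ligands, fell from 32.7 ± 2.13 to 12.05 ± 2.36 FPKM (SD, n = 3; log2 -1.38, SE 0.12, limma adjusted p = 0.000127). Itgb1, the common beta subunit, fell 1.49-fold and Itga5, of the fibronectin receptor, 1.56-fold. Tgfb3 fell 1.38-fold (adjusted p = 0.00439), whereas Tgfb1 (adjusted p = 0.627) and Tgfb2 (0.752) did not pass. Itga8, an integrin of mesenchymal cells, fell from 1.59 ± 0.615 to 0.52 ± 0.147, but not without aged replicate 2 (adjusted p = 0.0616) or 3 (0.053). It reached the minimum of 1 FPKM only through its young values, its aged ones being 0.68, 0.49 and 0.39. Without young replicate 2 or 3 it was below that minimum and not tested. Genes of the elastin receptor complex, Glb1, Neu1 and Ctsa, did not pass (adjusted p = 0.0821, 0.926 and 0.549).

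**Figure D4:**
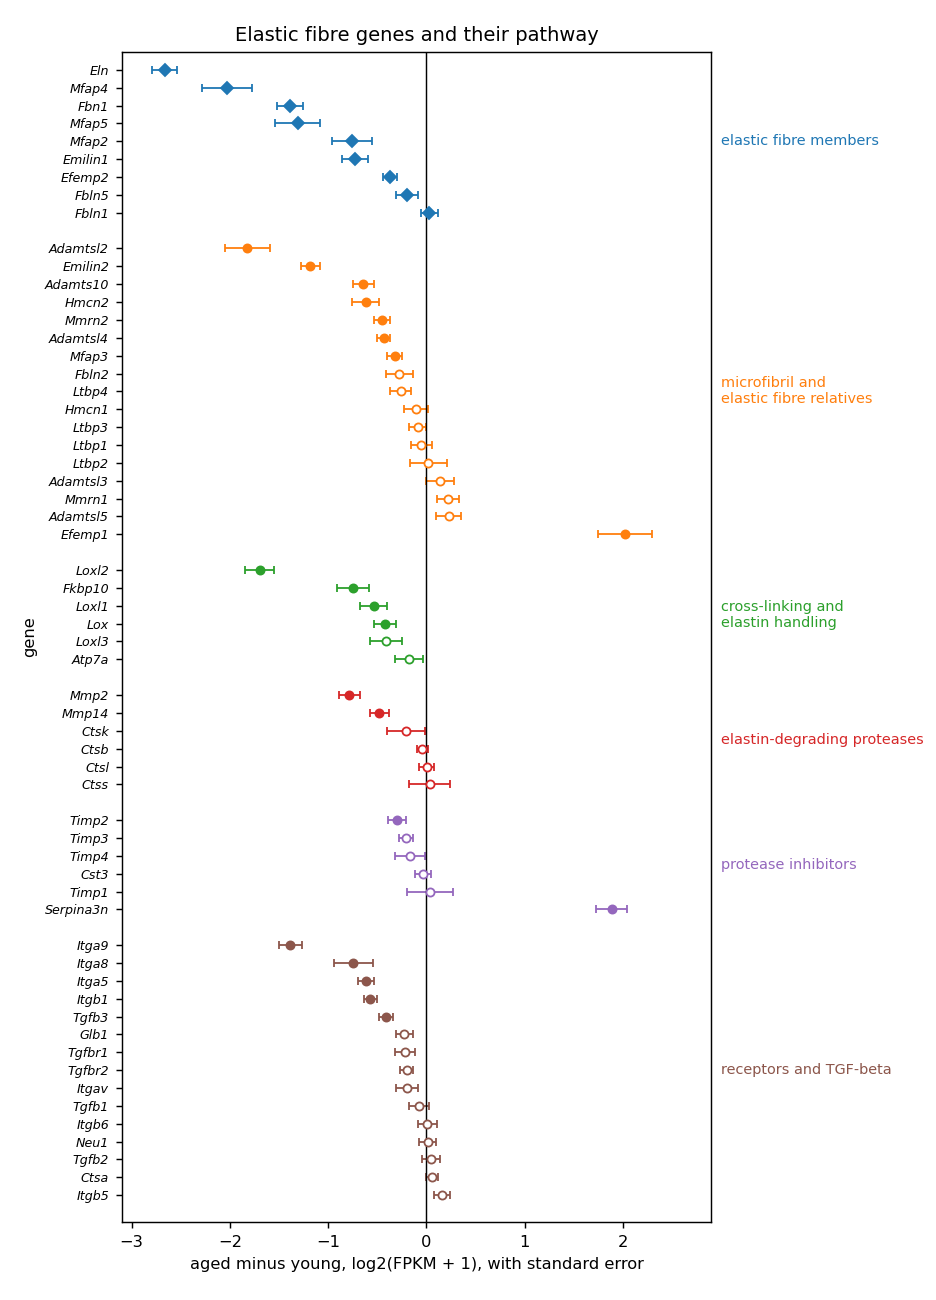
Aged minus young difference of log2(FPKM + 1) with its standard error, for the 9 members above 1 FPKM (diamonds, given without a test) and the 50 tested genes of the 5 pathway lists (circles, filled at a limma adjusted p under 0.05). Filled circles lie to the left of 0 for 19 genes and to the right for Efemp1 (2.02) and Serpina3n (1.88).

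Elastin can come from vascular smooth muscle, fibroblasts, endothelium and valve cells, so markers of these cells are given beside it. Of all tested genes 17.1% were lower and 9.32% higher, shares to be set beside each count of markers from here on. In lists this short a single gene weighs heavily. Smooth muscle markers summed to 612 to 783 FPKM in young and 163 to 190 in aged libraries, without overlap, most of it Acta2 (543 ± 85.4 and 60.1 ± 17.5 FPKM, SD, n = 3). Acta2 is also made outside smooth muscle, and the smooth muscle myosin Myh11 (chosen with its values in view) was at 5.21, 5.86 and 4.54 FPKM in young and 3.96, 4.51 and 4.16 in aged libraries (limma adjusted p = 0.106). Smtn, also in smooth muscle, was at 96.1 ± 1.51 and 85.7 ± 3.81 (adjusted p = 0.0605). Of 7 tested smooth muscle markers 4 were lower and 0 higher. Beside Acta2 these were Ramp1, 2.58-fold lower (adjusted p = 0.00193), Tagln, 1.53-fold lower (0.00758), and Myocd, 1.31-fold lower (0.0439). Myocd lost its call without young replicate 1 (0.0629) or 2 (0.0521) or aged replicate 1 (0.106), 2 (0.0972) or 3 (0.0769), and with median-of-ratios scaling (0.106) or quantile normalization (0.125).

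Fibroblast markers summed to 1499 to 1671 FPKM in young and 1353 to 1487 in aged libraries, without overlap, most of it Gsn, Dcn and Vim. Their median log2 difference was -0.33, and that of the smooth muscle markers was -0.35. Of 15 tested fibroblast markers 7 were lower, among them collagen chains, and 2, Dpep1 and Scara5, higher. The lower ones were Col1a1 (log2 -1.48), Col1a2 (log2 -1.46), Postn (-1.08), Vim (-0.77), Lum (-0.48), Dpt (-0.41) and Tcf21 (-0.33). Dpt and Vim kept their calls in each fit that left out a single library. Tcf21, Lum and Postn lost theirs under several alternatives. Without young replicate 2 their adjusted p was 0.0778, 0.0505 and 0.0756, and the count of lower markers was 4. Scara5 lost its call on TPM (adjusted p = 0.0751) and without young replicate 1 (0.0598), 2 (0.09995) or 3 (0.0668) or aged replicate 1 (0.0742) or 2 (0.0893), and the count of higher markers was then 1, or 2 without young replicate 1. The most abundant, Gsn and the proteoglycan gene Dcn, were at 508 ± 41.1 and 355 ± 22.6 FPKM in young and 587 ± 35.0 and 386 ± 23.0 in aged ventricle (SD, n = 3; limma adjusted p = 0.0676 and 0.224). Pdgfra, a defining receptor of fibroblasts (also chosen with its values in view), was at 7.81, 9.87 and 7.97 FPKM in young and 8.81, 7.03 and 8.10 in aged libraries, with overlapping ages.

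The sums of the pericyte and of the endothelial markers were also lower in aged libraries, without overlap. Pericyte markers (6 of 8 lower, 0 higher) summed to 383 to 466 FPKM in young and 332 to 354 in aged libraries. Endothelial markers (5 of 10 lower, 0 higher) summed to 485 to 584 and 403 to 418 FPKM, and examples are Cdh5, 1.66-fold lower, and Pecam1, 1.49-fold lower. Kdr, Emcn, Egfl7, Flt1 and Vwf did not pass (limma adjusted p from 0.171 to 0.888). Their ages overlapped, and the aged means of Flt1 and Vwf were the higher ones. Among pericyte genes Rgs5 fell 1.28-fold, with its call lost without young replicate 2 (adjusted p = 0.0803) or 3 (0.0909) or aged replicate 1 (0.0636) or 3 (0.064), and Abcc9 was at 61.4 ± 2.26 and 67.0 ± 5.62 FPKM (SD, n = 3). Markers used for valve interstitial cells overlapped, at 51.9 to 62.5 FPKM in young and 53.3 to 62.7 in aged libraries (0 of 6 lower and 1, Prg4, higher), most of it Timp3 and Cilp. Epicardial and mesothelial markers ran from 12.9 to 26.7 FPKM in young and 10.5 to 14.6 in aged libraries. Of 6 tested, 2, Wt1 and Aldh1a2, were lower (33.3%, beside 17.1% of all tested genes). That count was 0 without young replicate 3 and 1 without young replicate 1 or 2 or aged replicate 1 or 3.

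Macrophage markers such as Lyz2 and C1qa summed to 418 to 447 and 366 to 461 FPKM (2 of 8 lower, 25%, beside 17.1% of all tested genes). Cardiomyocyte markers were at 47829 to 51868 FPKM in young and 55086 to 58628 in aged libraries (3 of 8 higher, among them Myl2). Myl2 was not called with quantile normalization (adjusted p = 0.159), where 1 of these markers was higher, or with no minimum FPKM (0.0653), where 0 were. Actc1 did not pass (adjusted p = 0.196). Atrial markers were almost all Nppa, which stressed ventricle also expresses, at 102.43, 231.94 and 158.90 FPKM in young and 38.93, 36.34 and 137.49 in aged libraries. The next, Myl4, was at 2.85 ± 0.935 and 2.10 ± 0.827 (SD, n = 3), and 0 of 3 tested atrial markers passed. Nppa (limma adjusted p = 0.0568) was called lower on TPM (0.0365), with a minimum of 5 FPKM (0.0454) and with the replicate block (0.0292). It was also called lower without young replicate 1 (0.0458) or aged replicate 3 (0.00155). Stratified epithelium markers, among them Krt13 and Krt14, passed in 0 of 8 tested cases, and in all 8, higher, without aged replicate 3. The part of any of these cell types in the differences of the elastic fibre genes was not tested.

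**Figure D5:**
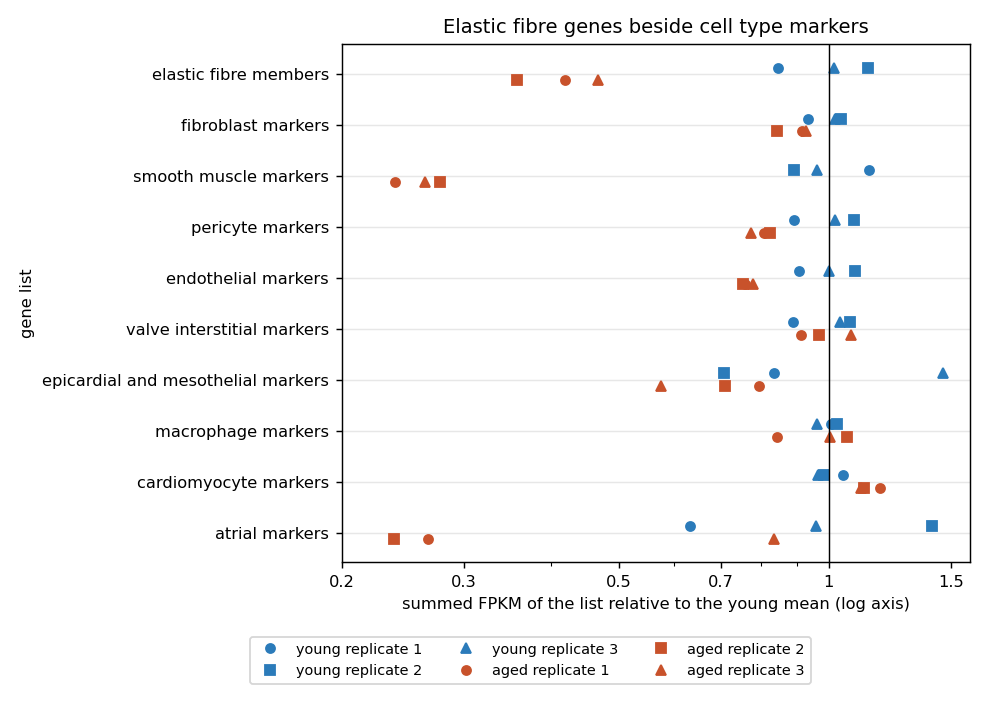
Summed FPKM of the 10 elastic fibre genes and of 9 cell type marker lists in each library, relative to the mean of the 3 young libraries (log axis). Elastic fibre genes lie well left of 1 in the aged libraries (orange), and smooth muscle markers, which are mostly Acta2, further left. Fibroblast markers, which are mostly Gsn, Dcn and Vim, lie closer to 1, with the aged libraries left of the young ones. Stratified epithelium markers, near 0 in 4 libraries, are not drawn.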

How the data were processed

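The authors deposited 1 table of FPKM for 18181 genes with 1 column per sample, to 2 decimals, per the file headers. Tools named in the submitters' processing notes, without their roles, were RSEM 1.2.12, Bowtie2 2.2.5, DESeq2 1.4.5 and HISAT2 2.0.4, with the build mm10. Annotation and filters were not given in the sources used here. Strand marking is not stated, so overlapping genes are not told apart. Of the gene IDs 18128 matched RefSeq's GRCm38.p6 table, from which coordinates came; exons and strands came from GENCODE vM21. Aged was compared with young by limma 3.58.1 (R 4.3.3; eBayes with a mean trend, two-sided) on log2(FPKM + 1), a scale that understates the change of low genes, for the 11860 genes averaging 1 FPKM or more. Calls were made at an adjusted p under 0.05 (Benjamini-Hochberg, all tested genes), and the steps were tested on simulated data. Exact permutation of 3 against 3 cannot give a p below 0.1. Folds are ratios of mean FPKM.

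Members and lists were chosen with earlier results of these data known. Named genes were the members, the called genes of each pathway list (at most 8 by statistic, plus the 2 most abundant in lists with fewer than 3 called), the 2 most abundant of each marker list and the 5 nearest to Eln, leaving out predicted genes; any other gene was chosen with its values in view. Alternatives were another pseudocount, filters, scalings, robust variance, a replicate block and leaving out libraries. Figures were drawn with matplotlib 3.10.9 in Python 3.11.15.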

Additional observations from a re-analysis of the deposited data

How the results depend on the processing

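Of all genes 3131 were called, and 1882 to 2915 when a single library was left out, with 2056 without young replicate 2 and 1882 without young replicate 3. That of other pathway genes was 21, and 17 to 27 without a single library. The count of members past the same threshold, which their choice from this comparison fixed and from which nothing is read, was 7, and 6 to 7 without a single library. With no minimum FPKM, it was 7, Fbn2 in place of Mfap2, and 5 pathway genes were higher in place of 2, the additional ones being Mmp9, Cela1 and Serpina1b. With aged replicates 1 and 2 left out together, assuming that the lone aged library varies as the young ones do, 972 genes, 4 members (Eln, Fbn1, Mfap4 and Mfap5) and 11 other pathway genes were called; fewer samples entered that fit. Each of the 9 tested members other than Fbln1 kept its sign under every alternative run, and Fbln1, never called, turned negative on TPM, without young replicate 2 and without aged replicate 3. Efemp2 moved by more than the SD of its log2 values between replicates (0.0485), to -0.43 on TPM, -0.29 after quantile normalization and -0.31 after median-of-ratios scaling, as did Emilin1 (SD 0.218), to -0.47, against aged replicate 3 alone. The share of higher genes among all calls was 35.3%, but 28.04% on TPM, 46.5% after quantile normalization and 49.6% after median-of-ratios scaling; the median of all genes was -0.10, -0.0055 and -7.5e-04 there. Of 710 values of the 48 other named genes under alternatives, 631 kept direction and side of the threshold, 50 lost a call, 17 gained one and 12 changed sign, none of these called. Those were Ctsb with median-of-ratios scaling (0.025), Ctsl on TPM (-0.041) and with quantile normalization (-0.014), Cst3 with median-of-ratios scaling (0.033), C1qa with that scaling (1.2e-05) and against aged replicate 3 alone (0.098), and Cilp against aged replicate 3 alone (0.32). Without a single library, values ran from -0.074 to 0.045 for Ctsl, from -0.11 to 0.034 for Cst3, from -0.015 to 0.22 for Lyz2 and from -0.149 to 0.0299 for C1qa. The cause of these changes was not tested. With the replicate number as a block, 7 members, 21 other pathway genes and 2785 genes were called. Same-numbered libraries showed no clear common deviation (correlations of 0.041, -0.08 and 0.038 for numbers 1 to 3). Pairs of unlike number were of like size, from -0.075 to 0.063. With so few libraries this check cannot exclude a batch or pairing shared by a number. Without read totals the precision of low values such as those of Fbn2 is unknown.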
